A study of Oryza sativa with 6 samples.

Results

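The genes described here copy DNA and package the copies: 19 rice (Oryza sativa) genes, 14 of them encoding replication factors and 5 encoding histone H2B, among 17905 genes that the arrays read with a probe set of their own. They were chosen by name, as all genes whose symbol or synonym starts with H2A, H2B, H3 or H4, with MCM or ORC and a digit, or is PCNA. The only histone type the names matched was H2B. Together they were read by 23 probe sets, 18 for replication factors and 5 for H2B. Another 6 genes met the rule without a single-gene probe set and were not analysed here: ORC6 and H2B.2, H2B.3, H2B.4, H2B.9 and H2B1. The homeobox genes OSH3, OSH43 and OSH45 match the letters once the leading Os is dropped, but they are not histone genes and were left out.

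Young uppermost internodes, the elongating stem segments below the panicle, were sampled from the rice mutant coi1-13 and from the wild type cultivar Nipponbare, with 3 biological replicates and 1 array for each. COI1 is the F-box protein that perceives the hormone jasmonate. The labels give coi1-13 only as a mutant; they state neither the lesion, nor whether it is 1 line, nor the age of the plants or how many were pooled, and nothing says that replicates were grown apart, so p-values measure the spread between these RNA samples. Biotin-labelled RNA was hybridised to Affymetrix rice arrays, and the values are log2 signals already scaled to 1 level on every array.

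Before a cell copies its genome, the origin recognition complex (ORC) binds DNA and helps to load the MCM2 to MCM7 ring, which unwinds the helix once replication starts. PCNA then clamps DNA polymerase to its template, and new histones, H2B among them, wrap the copied strands into nucleosomes. In plants these genes are mostly active in dividing cells, and in a growing rice internode division is centred in the intercalary meristem at its base. Plant histone messages carry poly(A) tails, so the labelling used for such arrays can read them.

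Array medians were 5.62 to 5.75 in coi1-13 and 5.55 to 5.56 in wild type, and the highest of 33 negative control probe sets stood at 5.26 to 5.56 in coi1-13 and 4.93 to 5.11 in wild type. Pearson's r across tested probe sets, which are not independent of each other, was 0.977 to 0.980 between arrays of 1 group and 0.943 to 0.946 between groups. The 3' minus 5' difference of the ef1a control probe sets was -3.72, -4.19 and -4.17 (log2) in coi1-13, against -1.57, -2.25 and -4.27 in wild type. Over the 6 arrays this difference ran from 0.96 to 3.17 for gapdh and from 3.94 to 4.21 for actin. The part of this unevenness in the changes below was not tested. The KNOX homeobox genes of young stems (OSH1, OSH6, OSH43 and OSH71) were above the negative controls on all 6 arrays. So were 10 of 12 anther and meiosis genes, with RTS and C6 at mean log2 signals of 14.34 and 13.79 over the 6 arrays. The purity of the internode samples was not tested. COI1A, COI1B and COI2 differed by -0.11, 0.001 and -0.09 on the log2 scale (limma adjusted p = 0.0582, 0.983 and 0.343). The labels do not say what the lesion does to these transcripts, so their levels do not check the genotype labels, on which every direction below rests.

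The replication and H2B genes moved in both directions and mostly by small amounts. Among those called, only ORC1 and MCM4 changed by 1.5-fold or more. Of 20 probe sets bright enough to test, 5 were lower in coi1-13, 3 were higher and 12 did not pass, by limma at a Benjamini-Hochberg adjusted p under 0.05 over all 34355 tested probe sets. That is 40% called, against 35.9% of all tested probe sets, with 19.4% of all called lower and 16.5% higher, so the share was close to that of the whole array. Shares were larger among bright probe sets. In a fit to the upper 40% by mean signal alone, 28.2% were called lower and 22.4% higher. The 3 arrays of 1 group lay wholly apart from those of the other in 11 of the 20, in 8 with coi1-13 below and in 3 with coi1-13 above. Of all tested probe sets 47.5% were apart, 25.4% with coi1-13 below and 22.1% with it above. The 8 include H2B.10, ORC5 and 1 MCM9 probe set, which did not pass. The gap of that MCM9 probe set was 0.003, and ORC5 exceeded the negative controls on no coi1-13 array. The median log2 change over the 20 was -0.13, beside -0.01 over all tested probe sets. Where a signal was lower, fewer dividing cells in the sample and less RNA per cell cannot be told apart in whole internodes.

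The probe sets left untested read MCM8 (2 probe sets) and MCM9 (1 of its 3). None of these 3 rose above the negative controls on any array, so the data give no change for MCM8, which acts in recombination in animals.

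**Figure D1:**
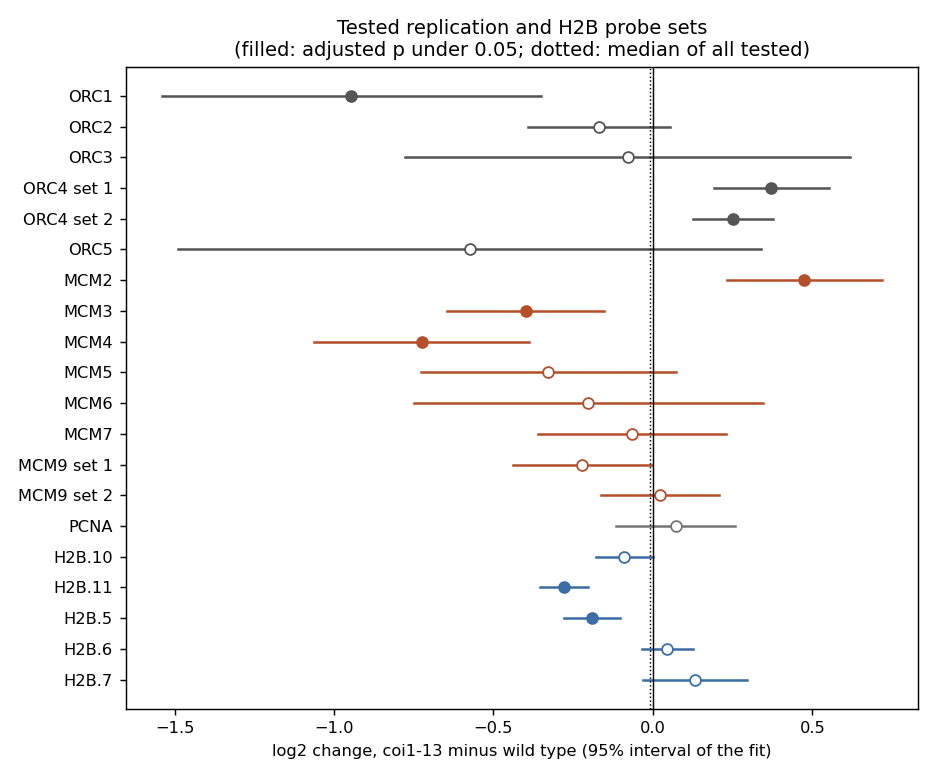
Log2 change, coi1-13 minus wild type, for each of the 20 tested probe sets, with the 95% interval of the fit across all probe sets. Filled points passed the test. ORC1, MCM3, MCM4, H2B.11 and H2B.5 lie left of 0, while MCM2 and both ORC4 probe sets lie right of it (under median centring the ORC4 probe sets no longer pass).

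Origin recognition subunits went opposite ways. ORC1, an ATP-binding subunit of the complex, fell; ORC4, another subunit, was higher by both of its probe sets; ORC2, ORC3 and ORC5 did not pass. ORC1 had log2 signals of 6.05, 5.33 and 6.30 on the 3 coi1-13 arrays, against 6.91, 6.96 and 6.64 on the wild type arrays. All 3 coi1-13 values lay below all wild type values, and coi1-13 replicate 2 was the lowest. The means were 5.89 ± 0.50 in coi1-13 and 6.84 ± 0.17 in wild type (SD, n = 3 each), a log2 change of -0.95 ± 0.27 (SE), or 1.93-fold lower (limma adjusted p = 0.0182). Its signals were dim, and the call was lost without wild type replicate 1 (adjusted p = 0.0594), without wild type replicate 2 (adjusted p = 0.0631) and without the variance trend (adjusted p = 0.0532).

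ORC4 read 8.61, 8.77 and 8.71 in coi1-13 and 8.34, 8.34 and 8.29 in wild type with its first probe set, whose name marks it as reading several transcripts of 1 gene. The second, which by its name can also read other genes, gave 9.70, 9.68 and 9.76 in coi1-13 and 9.49, 9.45 and 9.44 in wild type. The coi1-13 arrays stood above the wild type arrays in both probe sets, with no overlap. The changes were 0.37 ± 0.08 and 0.25 ± 0.06 (SE; adjusted p = 0.00445 and 0.00528), or 1.29-fold and 1.19-fold higher, but both calls were lost when each array was centred on its median (changes of 0.25 and 0.13, adjusted p = 0.0615 and 0.184).

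That centring matters for every small rise here. It moved the median change of all tested probe sets to -0.13, against -0.01 as deposited, so that 3721 probe sets were called higher and 9522 lower, in place of 5679 higher and 6668 lower. It rests on array medians that lay near the negative controls.

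Of the other origin subunits, ORC2 had 8.58, 8.52 and 8.48 in coi1-13, against 8.67, 8.53 and 8.89 in wild type, a change of -0.17 with an interval from -0.39 to 0.05 (adjusted p = 0.227). ORC3 had 5.20, 5.84 and 5.35 in coi1-13 and 5.52, 5.73 and 5.37 in wild type, a change of -0.08 with a wide interval, from -0.78 to 0.62. The groups overlapped for both genes, and ORC3 exceeded the negative controls on only 1 coi1-13 array. ORC5, for which the gene table also lists the synonym OsORC1, had 4.76, 4.23 and 4.72 in coi1-13 and 5.21, 4.91 and 5.32 in wild type. It exceeded the negative controls on no coi1-13 array and on 2 wild type arrays, so no fold is given (adjusted p = 0.322).

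The MCM2 to MCM7 genes, whose products form 1 ring with 1 copy of each subunit, did not move together either. MCM4 and MCM3 were lower, MCM2 was higher, and MCM5, MCM6 and MCM7 did not pass. MCM4 had 7.24, 6.82 and 6.998 in coi1-13, against 7.92, 7.63 and 7.68 in wild type. Every coi1-13 array was below every wild type array, at means of 7.02 ± 0.21 and 7.74 ± 0.16 (SD, n = 3 each). Its change of -0.73 ± 0.15 (SE), 1.65-fold lower, was the steepest among the ring genes (adjusted p = 0.00351).

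MCM3 had 7.56, 7.81 and 7.71 in coi1-13 and 8.15, 8.15 and 7.98 in wild type. Here too the groups did not overlap, and the change was -0.40 ± 0.11 (SE), 1.32-fold lower (adjusted p = 0.0167). The call was lost without coi1-13 replicate 1, without wild type replicate 1 or without wild type replicate 2, at adjusted p = 0.0597, 0.0581 and 0.0575.

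MCM2 had 8.56, 8.65 and 8.94 in coi1-13, against 8.31, 8.13 and 8.28 in wild type. The lowest coi1-13 array stood above the highest wild type array, and coi1-13 replicate 3 was the highest of all. Means of 8.72 ± 0.20 and 8.24 ± 0.10 (SD, n = 3 each) gave a change of 0.48 ± 0.11 (SE), 1.39-fold higher (adjusted p = 0.00629). MCM2 was the 1 replication factor probe set still called higher under median centring.

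**Figure D2:**
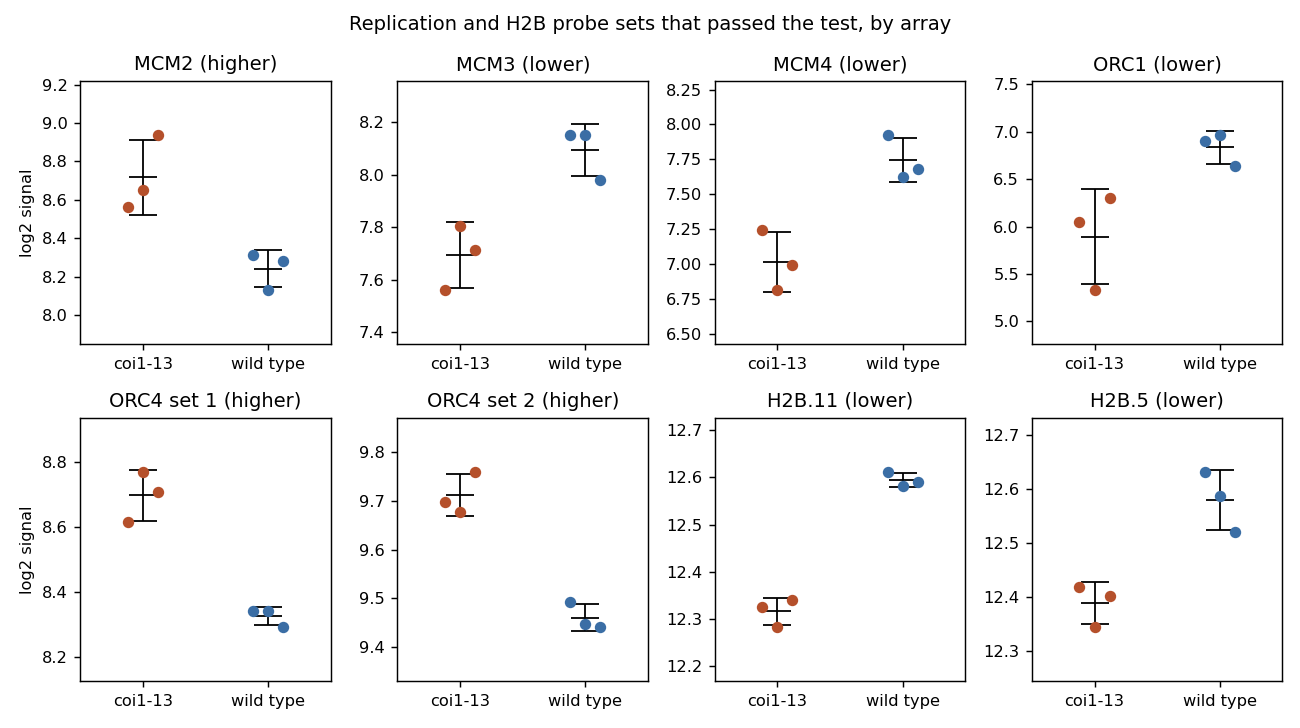
Log2 signal on each array for the 8 probe sets that passed, with coi1-13 left of wild type; points are arrays, and bars give the mean and SD of 3. In every panel the 3 arrays of 1 group lie wholly above those of the other. Each axis has its own range and does not start at 0, and the ORC4 rises are not called under median centring.

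MCM5 had 7.36, 7.30 and 6.91 in coi1-13 and 7.81, 7.25 and 7.50 in wild type, with overlapping groups and a change of -0.33 (interval -0.73 to 0.07; adjusted p = 0.192), which was -0.19 without coi1-13 replicate 3 and -0.18 without wild type replicate 1. MCM6 had 6.85, 5.95 and 6.64 in coi1-13, against 6.68, 6.84 and 6.53 in wild type. Its change of -0.20 rested on coi1-13 replicate 2 and was 0.062 without it (interval with all arrays -0.75 to 0.34). MCM7 had 7.32, 7.16 and 7.17 in coi1-13 and 7.21, 7.25 and 7.40 in wild type, a change of -0.07 (interval -0.36 to 0.23). The intervals of these 3 genes leave room for falls as well as rises, so equal levels are not shown.

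Comparing the ring genes within each array removes any scaling of whole arrays. Relative to the mean over MCM2 to MCM7 on its own array, MCM2 stood at 1.08, 1.37 and 1.54 in coi1-13 and at 0.63, 0.59 and 0.72 in wild type, higher by 0.68 in the mean. MCM4 stood at -0.24, -0.46 and -0.40 in coi1-13, against 0.24, 0.09 and 0.12 in wild type, a difference of -0.52. These 2 genes were the ones whose groups did not overlap on this relative scale; MCM3, MCM5, MCM6 and MCM7 overlapped, with mean differences of -0.19, -0.12, 0.01 and 0.14. This relative scale shows unequal change among the 6 genes and does not say which of them kept its level. With 3 arrays a group no test was made of it, since the genes were known to differ beforehand.

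**Figure D3:**
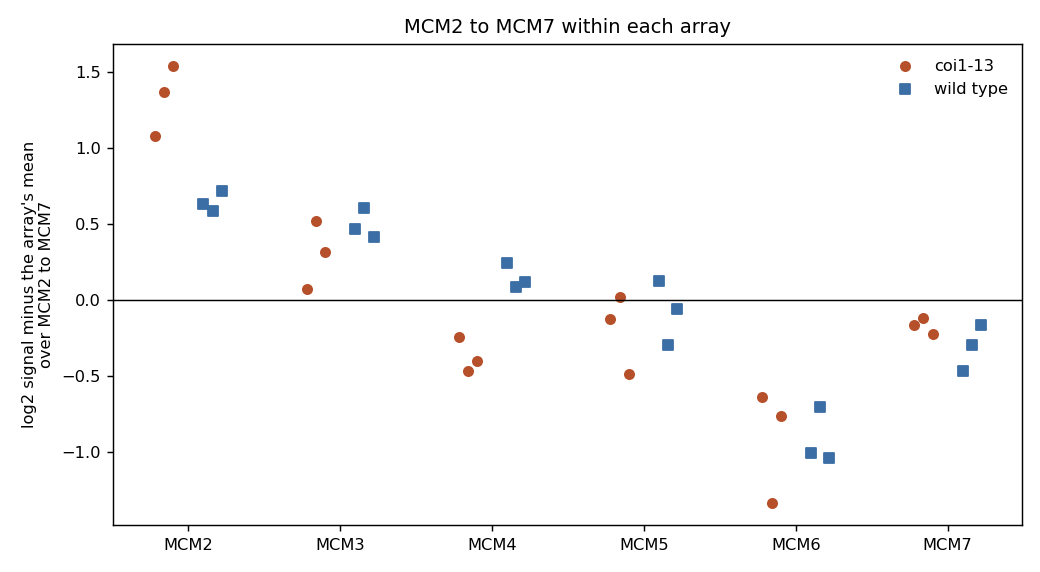
Log2 signal of MCM2 to MCM7 minus the mean of these 6 genes on the same array; circles are the 3 coi1-13 arrays and squares the 3 wild type arrays. Only MCM2 (coi1-13 above) and MCM4 (coi1-13 below) have groups that do not overlap; heights are to be compared within a gene, since different probe sets are not on 1 scale.

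MCM9, a relative of the ring genes with a role in DNA repair in animals, was read by 2 tested probe sets that gave different changes. The first had 8.22, 8.53 and 8.31 in coi1-13 and 8.55, 8.64 and 8.53 in wild type, with coi1-13 just below wild type on all arrays (change -0.22, adjusted p = 0.108). It was called lower without coi1-13 replicate 2 (-0.31, adjusted p = 0.0347) and under median centring (-0.34, adjusted p = 0.0304). The second had 8.64, 8.75 and 8.60 in coi1-13 and 8.74, 8.56 and 8.63 in wild type, a change of 0.02 (adjusted p = 0.87), and by its name it can also bind other transcripts. A change of MCM9 is therefore not established.

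PCNA, the sliding clamp and a standard label of cells in S phase, had 9.32, 9.50 and 9.56 in coi1-13, against 9.52, 9.35 and 9.30 in wild type. The groups overlapped. Its change of 0.07 had an interval from -0.11 to 0.26 (adjusted p = 0.555), and its sign turned under median centring (-0.048, adjusted p = 0.716).

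The H2B genes were read with less spread than the replication factors (standard errors of the log2 change of 0.03 to 0.07, against 0.06 to 0.41), so smaller differences could pass. Of 5 probe sets, 2 were lower in coi1-13 (H2B.11 and H2B.5), 0 were higher by limma and 3 did not pass; at an unadjusted p under 0.05 the counts were the same. The share called, 40%, was near the 35.9% of all tested probe sets, and 19.4% of those were lower. All 5 H2B probe sets lay in the upper 40% by mean signal, where 28.2% were called lower and 22.4% higher. The median change over the 5 was -0.09, within a range from -0.28 to 0.13. H2B.11 had 12.32, 12.28 and 12.34 in coi1-13 and 12.61, 12.58 and 12.59 in wild type. The gap between its groups was several times their spread, with means of 12.32 ± 0.03 and 12.60 ± 0.02 (SD, n = 3 each), a change of -0.28 ± 0.03 (SE), 1.21-fold lower (adjusted p = 9.4e-05).

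H2B.5 had 12.42, 12.35 and 12.40 in coi1-13, against 12.63, 12.59 and 12.52 in wild type. The groups did not overlap, and the change was -0.19 ± 0.04 (SE), 1.14-fold lower (adjusted p = 0.00358), a call narrowly lost without the variance trend (adjusted p = 0.0507). H2B.10 had 11.38, 11.38 and 11.30 in coi1-13 and 11.46, 11.41 and 11.45 in wild type. Its coi1-13 arrays also lay below, but the change of -0.09 did not pass (adjusted p = 0.121; under median centring it did, at -0.21 with adjusted p = 0.0204).

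H2B.6 had 12.67, 12.65 and 12.74 in coi1-13, against 12.67, 12.64 and 12.63 in wild type, a change of 0.05 (interval -0.04 to 0.13) that turned to -0.075 under median centring. H2B.7 had 12.59, 12.38 and 12.66 in coi1-13 and 12.49, 12.46 and 12.28 in wild type, a change of 0.13 (adjusted p = 0.194) that was called higher without coi1-13 replicate 2 (0.21, adjusted p = 0.0298). That change was 0.013 under median centring, 0.074 without coi1-13 replicate 3 and 0.070 without wild type replicate 3. Both pairs of groups overlapped. The H2B.7 probe set is marked by its name as sharing probe sequence with other transcripts, and the signal of near-identical H2B copies may be shared between all 5.

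In the order of the RefSeq gene table (assembly ASM3414082v1), H2B.10, H2B.7, H2B.6 and H2B.5 lie near each other, with 5, 2 and 1 genes between neighbours, while H2B.11 lies 3506 genes further on. Among the H2B genes read, the one with the largest fall was thus the 1 outside this cluster. H2B1, H2B.9 and H2B.2, on other chromosomes, were not read, nor were H2B.3 and H2B.4. Within the cluster the changes ran from -0.19 for H2B.5 to 0.13 for H2B.7, and H2B.5 was the 1 of the 4 that passed.

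Set against each other, H2B and the replication factors had medians on the same side of 0. Of 15 replication factor probe sets 3 were lower (20%), 3 higher and 9 did not pass, with a median change of -0.17, against a median of -0.09 for H2B. The difference between these medians was 0.08. Replication factor changes ran from -0.95 to 0.48. The mean over the tested H2B probe sets was 12.26 ± 0.04 in coi1-13 and 12.33 ± 0.04 in wild type, and that over the tested replication factors was 7.58 ± 0.05 in coi1-13 and 7.74 ± 0.05 in wild type (SD, n = 3 each; log2 signal). Within each array, the H2B mean minus the replication factor mean was 4.68, 4.69 and 4.68 in coi1-13, against 4.57, 4.62 and 4.58 in wild type. The groups did not overlap, so the replication factor mean was lower in coi1-13 relative to the H2B mean on the same arrays. This holds for means of log2 signals, in which dim probe sets count as much as bright ones. The log2 of summed replication factor signals overlapped, at 12.05 to 12.12 in coi1-13 and 12.04 to 12.14 in wild type. That of H2B also overlapped, at 14.59 to 14.69 in coi1-13 and 14.68 to 14.76 in wild type. The lowest changes in the replication factor mean were those of ORC1 (-0.95), MCM4 (-0.73) and ORC5 (-0.57), while 5 of the 15 were above 0. ORC1 and ORC5 were dim, and ORC5 exceeded the negative controls on no coi1-13 array. In the upper 40% by mean signal the difference between the medians changed sign. No test was made over these chosen members.

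Other genes of DNA replication and of chromatin assembly gave a similar mixture. Of 23 tested probe sets of these S-phase genes, 5 were lower, 2 were higher and 16 did not pass, with a median of -0.13. This is 30.4% called, against the 35.9% of all tested probe sets. RPA32 is a gene for a subunit of the protein that coats single-stranded DNA. It had 8.14, 8.13 and 8.22 in coi1-13 and 8.84, 8.68 and 8.82 in wild type, 1.53-fold lower (adjusted p = 0.00022). Other genes for this subunit did not pass by limma. The brighter RPA32-2 changed by 0.13 (adjusted p = 0.0978) and RPA32-3 by -0.24 (adjusted p = 0.0778). The small subunit RPA14 was 1.23-fold lower (adjusted p = 0.000288). MSI1, a WD-repeat protein of the chromatin assembly factor, was lower by both probe sets, 1.26-fold and 1.16-fold (adjusted p = 0.000229 and 0.0112). The second can read other genes by its name and lost its call without the variance trend (adjusted p = 0.0522).

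Subunits of 1 complex had changes of opposite sign here as well, though the rise was not stable. RFC4 and RFC5, chosen for mention after their values were seen, both belong to the clamp loader that opens PCNA. RFC4 had 9.56, 9.46 and 9.50 in coi1-13, against 9.86, 9.80 and 9.87 in wild type, and was 1.26-fold lower (adjusted p = 0.000883). RFC5 was 0.25 higher on the log2 scale at an adjusted p = 0.0467, a call lost under 7 alternatives, median centring among them, with overlapping groups. RFC1, RFC2 and RFC3 did not pass. The gene of the polymerase delta catalytic subunit, polD1, also named after its value was seen, was 1.39-fold higher, with 8.47, 8.41 and 8.47 in coi1-13 and 8.05, 7.83 and 8.05 in wild type (adjusted p = 0.00298); its probe set can read other genes.

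**Figure D4:**
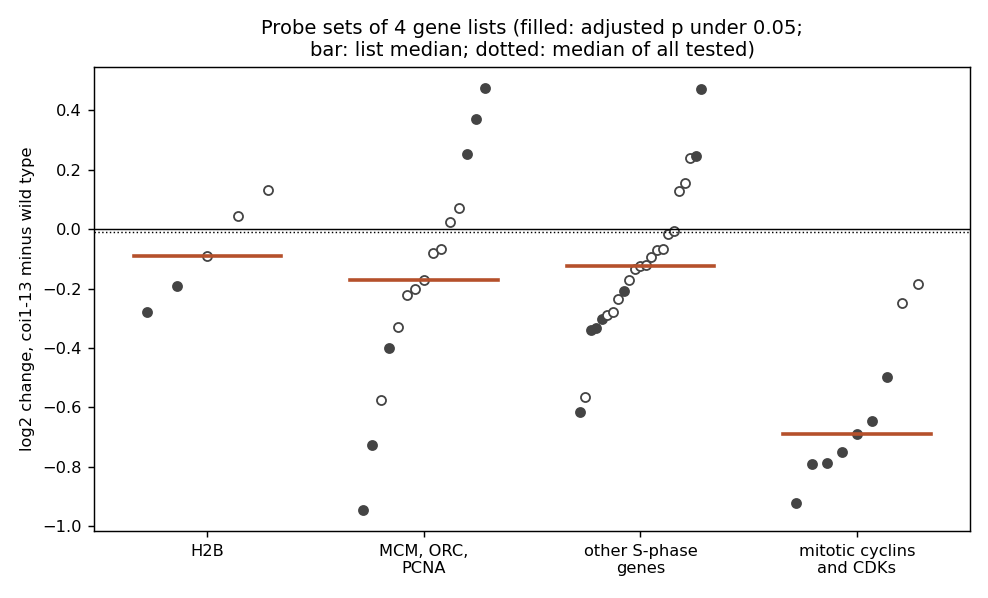
Log2 change, coi1-13 minus wild type, of each tested probe set of H2B, of MCM, ORC and PCNA, of other S-phase genes and of mitotic cyclins and cyclin-dependent kinases; filled points passed the test and bars are medians (-0.09, -0.17, -0.13 and -0.69). The 9 mitotic probe sets all lie below 0, while the other lists lie on both sides of it; MCM2 stays called higher under median centring and ORC4 does not.

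Most mitotic genes measured on the same arrays were lower. Of 9 probe sets for A- and B-type cyclins and a B-type cyclin-dependent kinase, 7 were lower, 2 did not pass and 0 were higher by limma (0 higher at an unadjusted p under 0.05 too), with a median of -0.69. That is 77.8% called lower, against 19.4% of all tested probe sets. CYCB1-1, a cyclin of the entry into mitosis, had 9.08, 9.16 and 9.28 in coi1-13, against 9.91, 9.85 and 9.83 in wild type (1.61-fold lower, adjusted p = 1.95e-05). CDKB2-1, CYCB2-1 and CYCA2-1 were 1.41-fold, 1.57-fold and 1.68-fold lower (adjusted p = 0.000165, 0.000181 and 0.000255). The difference between these changes and those of the replication genes was not tested.

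Markers of other tissues also differed between the genotypes. Of 12 anther and meiosis genes 7 were lower and 0 higher by limma (1 higher at an unadjusted p under 0.05), where 19.4% of all tested probe sets were lower and 16.5% higher. The log2 of their summed linear signals, which the brightest probe sets dominate, was 15.40 to 15.51 in coi1-13 and 15.75 to 15.77 in wild type. Of 13 leaf probe sets 5 were higher and 3 lower (log2 of the sum 16.64 to 16.69 in coi1-13 and 16.46 to 16.52 in wild type). The higher ones read RBCS, LIR1 and PSAH, and the lower ones PORA, CAB2R and RCA. The median change of the leaf list was -0.03. Of 6 probe sets of young stem genes 4 were lower (OSH1 and OSH43) and 2 higher (OSH6 and OSH71). The log2 of their sum was 12.92 to 12.95 in coi1-13 and 13.03 to 13.12 in wild type. Their mean log2 signal was 9.38 in coi1-13 and 9.37 in wild type. None of the 3 lists held a tested probe set at 0. The part of these tissues in the changes of the replication and H2B genes was not tested.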

How the data were processed

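Signals came from 6 Affymetrix rice arrays, 3 of coi1-13 and 3 of wild type. The authors deposited log2 signals of 57381 probe sets, made with GCOS 1.4 per the submitters' processing notes; the scaling was judged from the values, whose trimmed mean signal was 500.1 on all 6 arrays (2% trimmed at each end). Values of 0 are the floor of the scale. Probe sets were named through the platform annotation and a RefSeq gene table (ASM3414082v1): of 57258 probe sets other than 123 controls, 22436 had 1 gene, 95 several and 34727 none.

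The test was limma 3.58.1 under R 4.3.3 (lmFit, eBayes with trend, no block). It was fitted to 34355 probe sets, the brightest 60% by their mean over all arrays (log2 signal of at least 4.37), and tested on simulated data. Probe sets were kept apart. A group with no array above its highest negative control was taken as not above background. Precision is limited by 3 arrays per group.

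The members and lists were chosen with earlier results of these data known. The text names all members and, of the S-phase and mitotic lists, those with the smallest p; RFC4, RFC5 and polD1 were added after their values were seen. A gene whose synonyms show another protein was dropped from the S-phase list (NAP1) and from the anther list (ZEP1). The alternatives were another scaling, filter, floor, variance model, block, probe set choice or fold minimum, and leaving out each array.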

Additional observations from a re-analysis of the deposited data

How the results depend on the processing

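Of the 8 replication and H2B probe sets that passed, 3 (MCM2, MCM4 and H2B.11) kept direction and call under all alternatives that tested them other than the 1.5-fold minimum, which MCM2 and H2B.11 did not reach. Counts that moved by over 1.5 times were these. Median centring left 1 replication factor higher and gave 10 S-phase genes lower and 1 higher. A 1.5-fold minimum, which can only remove calls, left 0 H2B lower, 0 replication factors higher, 1 S-phase gene lower and 0 higher. Without the variance trend 1 H2B was lower and 1 S-phase gene higher, and without the filter, which adds dim probe sets to the adjustment, 1 S-phase gene was higher. With 1 array left out, 0 to 1 H2B were higher, 1 to 4 replication factors lower, and 1 to 3 S-phase genes higher. The difference between the H2B and replication factor medians was -0.023 in the upper 40% by mean signal, and ran from 0.021 to 0.10 with 1 array left out. Signs turned only among probe sets that had not passed. Under median centring H2B.6 changed by -0.075, the second MCM9 probe set by -0.098 and PCNA by -0.048. With 1 array left out, MCM6 ran from -0.39 to 0.062, that MCM9 probe set from -0.019 to 0.071 and ORC3 from -0.27 to 0.051, positive without coi1-13 replicate 1 or wild type replicate 2. Except as stated, the cause was not tested. Same-numbered arrays of the 2 groups did not deviate together over the tested probe sets (correlations of -0.0029, 0.0011 and 0.00042). This cannot show whether equal numbers pair samples, which the labels do not say. With the replicate number as a block the counts of 2 H2B lower, 3 replication factors lower and 3 higher were the same, and no call of these probe sets changed. Dim signals limit ORC1, ORC3, ORC5 and MCM6, and MCM8 was not measurable.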
